A study of Mus musculus with 12 samples.

Results

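The protein disulfide isomerase family was followed in RNA sequencing of thyroids from 12 mice. It was taken as 10 genes given by name, *Pdia3*, *Pdia4*, *Pdia5*, *Pdia6*, *P4hb*, *Erp44*, *Erp29*, *Txndc5*, *Tmx1* and *Tmx3*, out of 55536 genes in the deposited tables. All 10 were found under these names, and all 10 are among the 19661 genes that passed the filter on low counts. The 5 affected mice (replicates 1, 3, 4, 5 and 6) were B6NTac mice from Taconic whose label is a thyroid dysplasia phenotype. The 7 unaffected mice carry a wild type label. Of these, 6 (replicates 21 to 26) were B6NCrl mice from Charles River, and 1 (replicate 14) was a knockout animal from Taconic, whose targeted gene was not given in the sources used here. The study tied the dysplasia to a LINE-1 element, a mobile DNA element, inserted in an intron of the thyroglobulin gene *Tg*. The labels give neither the LINE-1 genotype of these mice nor their sex, age, treatment or batch, and every affected mouse came from a different colony than 6 of the 7 controls. Each mouse gave 1 library of ribosome-depleted RNA.

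Proteins of this family sit in the endoplasmic reticulum, the compartment in which secreted proteins fold. They have domains that resemble thioredoxin, and most use a couple of cysteines in these domains to form, break or reshuffle disulfide bonds in their clients. Thyroglobulin, the precursor of thyroid hormone, is a very large secreted protein with many disulfide bonds and is the main product of the follicular cell. Several family members are known targets of the unfolded protein response, in which the sensors ATF6 and IRE1 switch on genes for folding enzymes when unfolded protein accumulates.

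Total gene counts lay between 20170500 and 23319948 in affected mice (median 20811033) and between 11434901, in replicate 14, and 22401136 (median 19402629) in unaffected mice. *Tg* held between 10.7% and 24.3% of the counts in affected mice and between 21.6% and 29.6% in unaffected mice, which marks every library as thyroid. CPM values (counts relative to the library total) are scaled by TMM, and fold changes are affected against unaffected. Adjusted p-values come from the quasi-likelihood test of edgeR and were adjusted by Benjamini and Hochberg's method over all 19661 genes, and SE is the standard error of a log2 fold change. Errors of group means are SDs between mice.

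Of the 10 members, 8 were higher in affected mice at an adjusted p under 0.05 and 0 were lower. Among all genes tested, 7.63% were higher and 6.1% were lower. No member was lower at an unadjusted p under 0.05 in edgeR or at an adjusted p under 0.05 in DESeq2 (0 in each). The median log2 fold change was 0.93 over the members and 0.0052 over all genes tested. For 6 members, the lowest affected mouse was above the highest unaffected mouse, as it was for 3.78% of all genes, whereas 3.36% of all genes had the highest affected mouse below the lowest unaffected mouse. When the library totals were taken without *Tg* counts, the median of all genes shifted by -0.14, and 608 genes were called higher and 1711 lower, so that 26.2% of the calls were higher in place of 55.6%. On that scale, 7 members were still higher and 4 were without overlap. The changes were very uneven, from 7.98-fold for *Pdia4* to none that passed the test for the membrane-bound *Tmx1* and *Tmx3*.

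**Figure D1:**
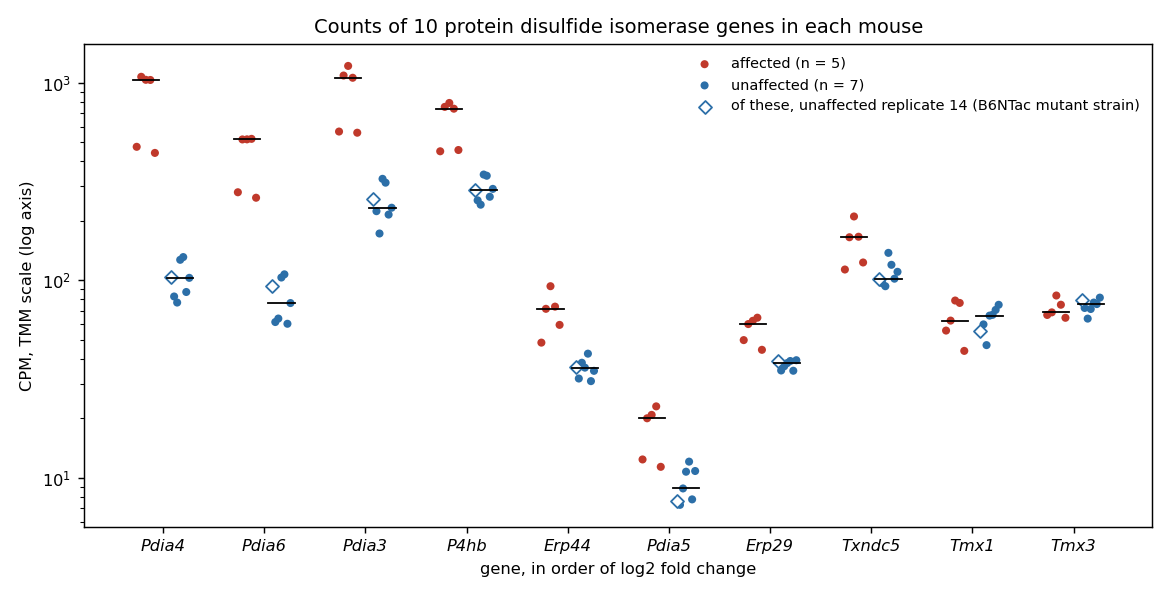
CPM on the TMM scale (log axis) of each of the 10 genes, with 1 point per mouse, affected mice (n = 5) in red, unaffected mice (n = 7) in blue and the group median as a black line. The red and blue points are apart for *Pdia4*, *Pdia6*, *Pdia3*, *P4hb*, *Erp44* and *Erp29*, they mix for *Tmx1* and *Tmx3*, and the open diamond of unaffected replicate 14 lies among the B6NCrl mice for every gene.

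*Pdia4*, *Pdia6* and *Pdia3*, soluble enzymes with an active thioredoxin-type site, rose most. *Pdia4* (ENSMUSG00000025823, minus strand of chromosome 6, GRCm38, from 47796141 to 47813430) encodes ERp72, an isomerase with several active domains. It had 474, 1073, 1036, 1034 and 442 CPM in affected replicates 1, 3, 4, 5 and 6, against a lowest, median and highest value of 77.2, 103 and 131 CPM in unaffected mice. The lowest affected mouse was thus 3.37 times the highest unaffected mouse. The log2 fold change was 3.00 (SE 0.25, adjusted p = 5.53e-05).

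*Pdia6* (ENSMUSG00000020571, plus strand of chromosome 12, from 17266545 to 17284770) encodes an isomerase that is known to bind the chaperone BiP and the stress sensor IRE1. Affected replicates 1, 3, 4, 5 and 6 had 279, 517, 517, 520 and 262 CPM, and the unaffected mice ran from 60.2 through a median of 76.7 to 107 CPM. Replicates 3, 4 and 5 were nearly level with each other, and the groups did not overlap. *Pdia6* rose 5.18-fold, with a log2 fold change of 2.37 (SE 0.23, adjusted p = 8.67e-05).

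*Pdia3* (ENSMUSG00000027248, plus strand of chromosome 2, from 121413775 to 121438687) encodes ERp57, which works on glycoproteins held by calnexin or calreticulin. Affected mice had 567, 1089, 1218, 1061 and 559 CPM in the same order, and unaffected mice had from 173 to 327 CPM with a median of 233. All affected mice again lay above all unaffected mice, with the lowest affected mouse at 1.71 times the highest unaffected mouse. The log2 fold change was 1.85 (SE 0.22, adjusted p = 0.00034).

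*P4hb* (ENSMUSG00000025130, minus strand of chromosome 11, from 120560298 to 120573253) encodes the founding member of the family, which is also a subunit of collagen prolyl 4-hydroxylase and of the microsomal triglyceride transfer protein. It was at 450, 756, 791, 740 and 457 CPM in the affected mice and between 242 and 343 CPM (median 287) in the unaffected mice. The groups stayed apart, but the step between them was smaller, at 1.31 times from the highest unaffected to the lowest affected mouse. *P4hb* rose 2.21-fold, with a log2 fold change of 1.15 (SE 0.16, adjusted p = 0.000753).

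Promoter sequence of 3 of these risers is shown beside that of *Tmx1*, which did not pass the test, because members that move together can be compared for the elements known from stress-responsive genes. Each line holds 150 bases from RefSeq (GRCm38.p6), 5′ to 3′ on the strand of the gene, from upstream of both the RefSeq and the Ensembl start of the gene. Capitals mark CCAAT and CCACG on either strand, the boxes that make up the endoplasmic reticulum stress element (ERSE). *Pdia6* is from chr12:17266395-17266544 (plus strand), *Pdia4* from chr6:47813513-47813662 (minus strand), *P4hb* from chr11:120573254-120573403 (minus strand) and *Tmx1* from chr12:70452945-70453094 (plus strand).
Pdia6: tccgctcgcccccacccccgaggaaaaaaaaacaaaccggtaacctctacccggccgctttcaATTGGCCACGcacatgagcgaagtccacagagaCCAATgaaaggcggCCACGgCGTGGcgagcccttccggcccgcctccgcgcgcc
Pdia4: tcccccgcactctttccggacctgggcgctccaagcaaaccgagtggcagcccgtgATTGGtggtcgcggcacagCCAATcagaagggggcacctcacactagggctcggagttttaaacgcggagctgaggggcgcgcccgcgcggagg
P4hb: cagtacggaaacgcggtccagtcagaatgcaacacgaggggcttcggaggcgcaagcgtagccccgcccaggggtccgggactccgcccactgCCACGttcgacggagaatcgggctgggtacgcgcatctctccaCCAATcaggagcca
Tmx1: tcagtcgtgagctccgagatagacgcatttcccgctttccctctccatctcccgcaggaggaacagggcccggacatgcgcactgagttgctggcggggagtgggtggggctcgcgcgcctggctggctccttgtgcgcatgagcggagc
The *Pdia6* stretch holds 2 CCAAT and 3 CCACG boxes, and the *Pdia4* stretch 2 CCAAT boxes and no complete CCACG. The *P4hb* stretch holds 1 of each, and the *Tmx1* stretch neither. The *Txndc5* stretch, not printed, also held neither, although *Txndc5* passed the test. *Pdia5* had 1 CCACG box and no CCAAT, and *Erp44* had 1 CCACG box at each of its starts, with CCAAT at only 1. For *Pdia3* too few bases lay upstream of both starts, and its window had CCAAT but no CCACG. In the longer windows searched below, *Txndc5* had CCACG at other start sites, and *Tmx1* had neither box. *Tmx1* is the only member with a window that did not pass the test. Whether the boxes go with the rise was therefore not tested.

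The full element, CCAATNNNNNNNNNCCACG, was searched on both strands in windows from 250 bases before to 50 bases after each RefSeq start. Of the 10 members, 8 have such a window in the table used here, and *Erp29* and *Tmx3* were not matched. The element was found in *Pdia6* alone of these 8, from 98 to 80 bases before the RefSeq start, and in 37 of 27025 genes (0.137%) with a window. In the related lists described further on, it was found in *Creld2*, *Calr*, *Canx*, *Hsp90b1* and *Hspa5*. Upstream of it, *Pdia6* has an opposite-strand CCAAT box that runs directly into a CCACG box, without the single base that ERSE-II (ATTGGNCCACG) has between them. ERSE-II itself was found in 0 of the 8 members and in 0.0444% of genes. The core of the unfolded protein response element, TGACGTG, and the core of the amino acid response element, TGATGNAA, were both found in *Txndc5* alone, in windows of different start sites, and in 2.22% and 4.51% of all genes. Single boxes are common. CCAAT was found in 5 of the 8 members and 41.1% of genes, and CCACG in 6 of the 8 members and 35.5% of genes, with the boxes of the full ERSE included. These single boxes were chosen for the search after the data had been seen. A match describes these letters only and gives no binding site.

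Of the members with particular roles in retention and escort, *Erp44* and *Erp29* were higher without overlap. *Erp44* (ENSMUSG00000028343, minus strand of chromosome 4, from 48193323 to 48279558) encodes the protein that holds back secretory clients and the oxidase ERO1 through mixed disulfides between the Golgi and the endoplasmic reticulum. The affected mice had 48.4, 71.7, 93.4, 73.6 and 59.5 CPM, and the unaffected mice had from 30.9 to 42.5 CPM with a median of 36.1. The lowest affected mouse, replicate 1, was at 1.14 times the highest unaffected mouse. *Erp44* rose 1.94-fold (log2 fold change 0.95, SE 0.14, adjusted p = 0.000944).

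*Erp29* (ENSMUSG00000029616, minus strand of chromosome 5, from 121428590 to 121452506) encodes a member without the active cysteine site, described in thyroid cells as a partner of thyroglobulin. It was at 49.8, 60.0, 62.4, 64.7 and 44.5 CPM in affected mice and between 34.8 and 39.4 CPM (median 38.1) in unaffected mice. The unaffected mice were closer together here than for any other member, with an SD of 0.08 on the log2 scale. The change was 1.504-fold (log2 fold change 0.59, SE 0.09, adjusted p = 0.0013). *Erp29* shares 24.4% of its annotated exon bases with the opposite-strand gene *Naa25*, and whether the counting used strand is not stated. *Naa25* itself had mean values of 38.5 CPM in affected and 33.1 CPM in unaffected mice.

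*Pdia5* and *Txndc5*, further soluble isomerases, passed the test with overlapping groups. *Pdia5* (ENSMUSG00000022844, minus strand of chromosome 16, from 35397312 to 35490873) encodes PDIR, known to act on the stress sensor ATF6. It had the lowest FPKM of the members, and in CPM it had 12.4, 20.01, 20.8, 23.0 and 11.4 CPM in affected mice and between 7.29 and 12.1 CPM (median 8.83) in unaffected mice. Affected replicate 6 lay below unaffected replicate 24. *Pdia5* rose 1.88-fold (log2 fold change 0.91, SE 0.20, adjusted p = 0.00951).

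*Txndc5* (ENSMUSG00000038991, minus strand of chromosome 13, from 38500079 to 38528824) encodes ERp46, an isomerase with several thioredoxin domains. The affected mice had 113, 165, 211, 166 and 123 CPM and the unaffected mice between 93.3 and 138 CPM (median 102). Affected replicates 1 and 6 fell within the range of the unaffected mice. The increase of 1.43-fold (log2 fold change 0.52, SE 0.15) passed narrowly, with an adjusted p of 0.036, and it did not pass in 14 of 22 alternative fits. The fit with only B6NCrl controls is the same as that without unaffected replicate 14, and it is counted under both names. Over the 22 fits the adjusted p of *Txndc5* ran from 0.00808 to 0.15, with the gene higher in each. The call was lost without affected replicate 3, 4 or 5 and without unaffected replicate 14, 21, 22, 25 or 26 (adjusted p from 0.0529 to 0.0845). *Txndc5* shares 4.99% of its exon bases with *Bmp6* and 6.92% with *Gm31834*, both on the opposite strand.

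*Tmx1* and *Tmx3*, which are anchored in the membrane of the endoplasmic reticulum, did not pass the test. *Tmx1* (ENSMUSG00000021072, plus strand of chromosome 12, from 70453095 to 70468040) is a thioredoxin-related transmembrane protein that prefers membrane-bound clients. It had 55.7, 62.5, 79.0, 76.8 and 43.9 CPM in affected mice and from 47.0 to 75.2 CPM (median 66.2) in unaffected mice, so both groups spanned much the same range. Its log2 fold change was 0.01 (SE 0.15, adjusted p = 0.971).

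*Tmx3* (ENSMUSG00000024614, plus strand of chromosome 18, from 90510154 to 90543267) had 66.8, 68.8, 83.7, 75.2 and 64.6 CPM in affected mice and from 64.0 to 81.7 CPM (median 75.8) in unaffected mice. The change, on the log2 scale, was -0.05 (SE 0.08, adjusted p = 0.699). The small standard error makes *Tmx3* the most tightly measured of the 10 changes. It shares 4.94% of its exon bases with a pseudogene on the same strand that held at most 0.188 CPM on average in either group.

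**Figure D2:**
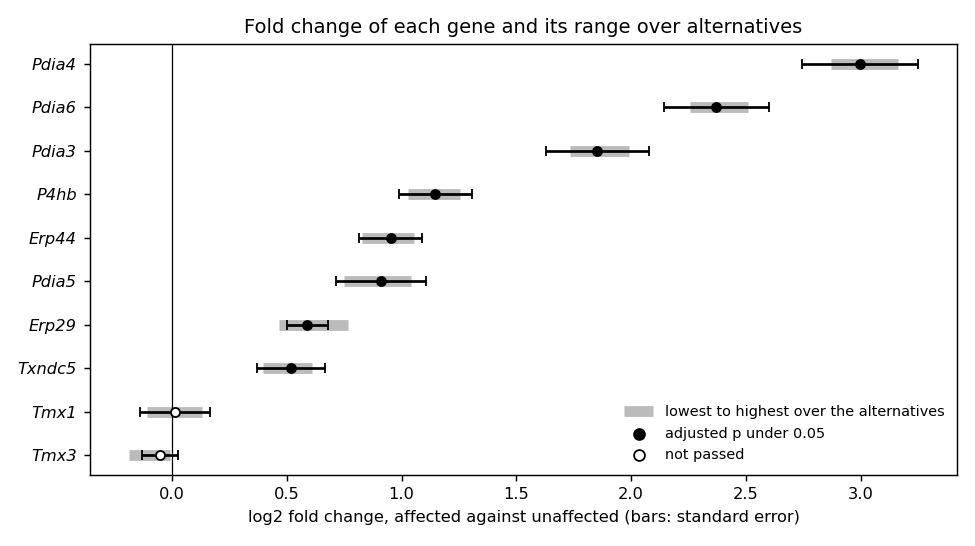
Log2 fold change of each gene, affected against unaffected, with its standard error as a black bar, and the lowest to highest value over 22 alternative fits as a grey band. The 8 filled points passed an adjusted p of 0.05, and the bands of *Tmx1* and *Tmx3*, the open points, stay between -0.19 and 0.13.

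The members changed by different amounts, and this was tested within each library. For each of the 45 pairs, the log2 ratio of both genes was compared between groups by an exact permutation test, two-sided, over the 792 ways to choose 5 of 12 mice, adjusted over the pairs. Of the 45 pairs, 40 differed at an adjusted p under 0.05, and in 35 the ratios of the groups did not overlap. *Pdia4* rose more than every other member. Its change exceeded that of *Pdia6* by 0.57 log2 units (95% interval 0.40 to 0.74), that of *Pdia3* by 1.11 (0.95 to 1.27) and that of *P4hb* by 1.80 (1.56 to 2.02), each with the smallest p that this design allows, 0.00126 (adjusted p = 0.00172 in the exact permutation test).

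*Pdia6* in turn exceeded *Pdia3* by 0.54 (95% interval 0.35 to 0.72), and *Pdia3* exceeded *P4hb* by 0.69 (0.50 to 0.88), with the same p. Within a library, the log2 ratio of *Pdia3* counts to *Pdia4* counts was 1.29 ± 0.10 (SD, n = 7) in unaffected and 0.18 ± 0.14 (SD, n = 5) in affected mice. The log2 ratio of *Pdia4* counts to *P4hb* counts went from -1.52 ± 0.10 to 0.28 ± 0.25. The spread of these ratios was well below the distance between the groups.

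The 5 pairs that did not pass were neighbours in the order of change. *Erp44* and *Pdia5* differed by 0.05 log2 units, with a 95% interval for *Pdia5* minus *Erp44* of -0.37 to 0.27. *P4hb* exceeded *Erp44* by 0.19 (-0.05 to 0.43), *Pdia5* exceeded *Erp29* by 0.30 (-0.02 to 0.62), *Erp29* exceeded *Txndc5* by 0.08 (-0.16 to 0.32) and *Tmx1* exceeded *Tmx3* by 0.05 (-0.21 to 0.30). Differences as large as the ends of these intervals are not excluded for these pairs.

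**Figure D3:**
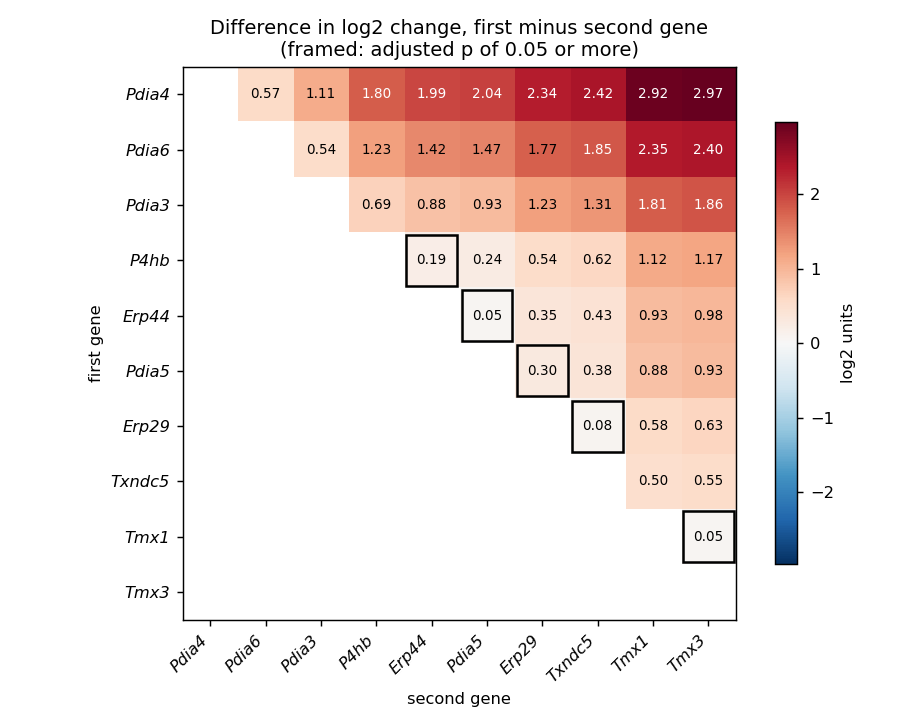
Difference in log2 change between every pair of the 10 genes, row gene minus column gene, as numbers in log2 units and as color. The values grow toward the upper right, up to 2.97 for *Pdia4* against *Tmx3*, and the 5 framed cells next to the diagonal are the pairs that did not pass.

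Because FPKM values are scaled to transcript length, they were used to compare levels between genes. The summed FPKM of the 10 genes averaged 1264 ± 408 (SD) over the 5 affected and 399.9 ± 58.9 (SD) over the 7 unaffected mice, a ratio of 3.16. It was 921, 1608, 1540, 1523 and 728 in affected replicates 1, 3, 4, 5 and 6 and between 312 and 472 (median 409) in unaffected mice. The family made up 0.238% of all FPKM in affected and 0.08996% in unaffected mice.

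The makeup of the family shifted. In unaffected mice the order of mean FPKM was *P4hb* (101), *Pdia3* (91.2), *Pdia4* (42.5), *Pdia6* (39.97), *Txndc5* (38.5), *Tmx1* (23.8), *Erp29* (22.6), *Tmx3* (19.95), *Erp44* (14.9) and *Pdia5* (5.30). The ranges were apart between *Pdia3* and *Pdia4*, between *Txndc5* and *Tmx1*, and between *Erp44* and *Pdia5*, and all other neighbours overlapped. In affected mice *Pdia4* (337) and *Pdia3* (326) led, and *P4hb* (223) and *Pdia6* (204) followed. *Txndc5* (54.7), *Erp29* (39.4), *Erp44* (28.1), *Tmx1* (24.3), *Tmx3* (18.5) and *Pdia5* (9.86) made up the rest, with ranges apart only below *Pdia6* and above *Pdia5*. *Pdia4* was ahead of *Pdia3* in 2 of 5 affected mice, so the order of these leaders is not settled by these libraries.

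As a share of the summed FPKM, *Pdia4* was 10.6% ± 0.60 (SD, n = 7) in unaffected and 26.0% ± 2.72 (SD, n = 5) in affected mice. *Pdia6* was 9.91% ± 1.16 and 16.1% ± 0.73 in the same order. *P4hb*, although its own level was higher, had a smaller share in affected mice, at 17.9% ± 1.27 against 25.4% ± 0.48. *Pdia3* ran from 24.7% to 27.3% in affected and from 19.5% to 24.8% in unaffected mice, with overlap. The other 6 members each had a smaller share in every affected mouse than in any unaffected mouse.

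**Figure D4:**
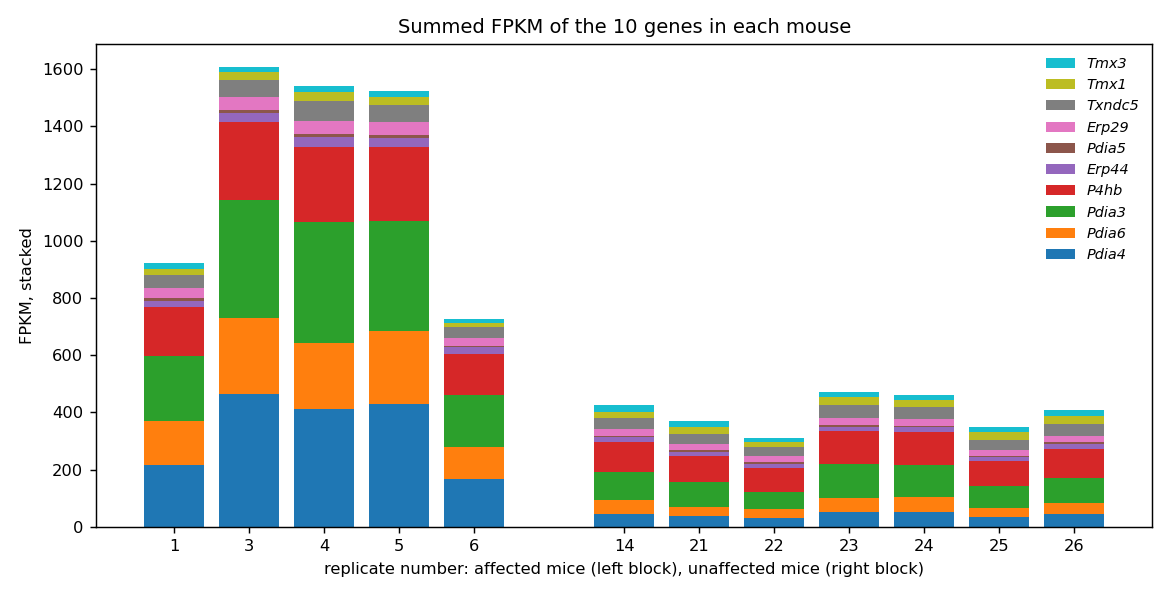
Stacked FPKM of the 10 genes in each mouse, with the 5 affected mice on the left and the 7 unaffected mice on the right, numbered by replicate. Affected bars reach from 728 to 1608 and unaffected bars from 312 to 472, and the blue and green parts (*Pdia4* and *Pdia3*) widen most.

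The affected mice did not respond alike. In CPM, replicates 3, 4 and 5 held the 3 highest affected values for each of the 10 members, and replicates 1 and 6 the lowest, also for *Tmx1* and *Tmx3*. In FPKM this did not hold for *Tmx3*, where replicate 1 (19.42) lay above replicates 3 (18.36) and 5 (19.04). The median log2 difference from the unaffected mean over the 10 members was 1.06, 1.28 and 1.18 in replicates 3, 4 and 5 and 0.44 and 0.49 in replicates 1 and 6. Replicates 1 and 6 also had the lowest share of counts from *Tg*, at 11.04% and 10.7%, against 18.9% to 24.3% in the other affected mice. The summed FPKM of 10 follicular markers was 14510 and 14020 in them, against 25000 to 32560 in the other affected mice and 26530 to 35840 in unaffected mice. In bulk tissue, fewer cells of a type and less RNA per cell cannot be told apart. Other tissue also differed between these mice. The 8 muscle markers summed to 10410 FPKM in replicate 6 and to between 6.78 and 462.5 in the other affected mice. The 8 fat markers were highest in replicate 1, at 2925. Fibroblast markers summed to 519.8 and 398.5 in replicates 1 and 6, against 305.2 to 315.4 in the other affected mice. Parathyroid and C cell markers summed to 1337 in replicate 4 and to between 4371 and 8118 in the other affected mice. The part of these tissues in the lower values was not tested.

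The share of *Pdia4* in the summed FPKM was 23.6% and 22.8% in affected replicates 1 and 6 and between 26.7% and 28.9% in the others, above the unaffected maximum of 11.5% in each. Among unaffected mice, replicate 24 was among the top 2 for 8 members and replicate 22 was lowest for 6.

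The unaffected knockout animal, replicate 14, shares its supplier with the affected mice and lay within the range of the 6 B6NCrl mice in CPM for all 10 members. In FPKM it lay just above that range for *Erp29* (25.0 against at most 23.4) and *Tmx3* (22.1 against at most 21.9) and within it for the other 8. For *Pdia4* it had 103 CPM, against 77.2 to 131 in B6NCrl mice, and for *Pdia6* 94.0 CPM, against 60.2 to 107. Its summed FPKM was 425. With only the 6 B6NCrl mice as controls, 7 members passed, as *Txndc5* was lost at an adjusted p of 0.0651. Since this is a single mouse, colony and phenotype cannot be told apart beyond these values.

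The transcript length that lies behind each FPKM value, obtained from count, FPKM and total count, was without overlap between groups for *Erp29* only, as for 1.67% of 9084 genes that have more than 1 annotated transcript and no library under 100 counts. It averaged 1437.8 ± 85.5 bp (SD) over the 5 affected and 1656.8 ± 41.3 bp (SD) over the 7 unaffected mice, a difference of -13.2%. In FPKM, *Erp29* therefore rose more, 1.741-fold, than in counts, 1.504-fold. For the other 9 members the mean length differed by at most 2.91% between groups.

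Of 13 relatives of the family that are not among the 10, 10 could be tested, and 1 was higher and 1 lower. Over all genes tested, 7.63% were higher and 6.1% lower, so these counts are near the general share. The same shares apply to the lists that follow. *Txndc12*, a small thioredoxin-like protein of the same compartment, had 17.2 ± 1.02 CPM in the 5 affected mice (mean ± SD) and 13.5 ± 1.51 CPM in the 7 unaffected mice, a log2 fold change of 0.35 (SE 0.09, adjusted p = 0.0199). *Txndc16* had 51.7 ± 9.29 against 67.4 ± 6.75 CPM, a log2 fold change of -0.38 (SE 0.11, adjusted p = 0.0344). The groups overlapped for both. The median log2 fold change of the 10 tested relatives was 0.19. These relatives include *Casq1* (log2 fold change 0.56, SE 1.55) and *Casq2* (0.41, SE 0.50), which did not pass. *Casq1* is also among the muscle markers used here and ran from 1.31 to 308.5 CPM in affected mice. The membrane-bound relatives *Tmx2* and *Tmx4* had log2 fold changes of -0.05 and 0.04 (adjusted p = 0.663 and 0.733). Other relatives that did not pass include *Dnajc10*, at -0.11 (adjusted p = 0.514), and *Txndc11*, at 0.41 (adjusted p = 0.0643). Whether attachment to the membrane goes with a flat value was not tested.

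Enzymes that oxidize, reduce or resemble the family as redox partners were given as 14 genes, of which 6 were higher and 0 lower, with a median log2 fold change of 0.27 (0 lower also at an unadjusted p under 0.05 in edgeR and in DESeq2). *Creld2*, a small disulfide-handling protein induced by stress, had 157 ± 71.0 against 14.7 ± 3.35 CPM, a log2 fold change of 3.41 (SE 0.29, adjusted p = 5.53e-05). *Ero1l*, the main oxidase that recharges *P4hb*, rose by 0.96 log2 units (SE 0.17, adjusted p = 0.00346), and *Creld1* by 0.72 (SE 0.11, adjusted p = 0.00151). The peroxidase *Gpx7*, glutathione reductase *Gsr* and *Vkorc1l1* rose by 0.60, 0.49 and 0.28. *Ero1lb*, the second ERO1 gene, had 239 ± 85.8 against 157 ± 35.1 CPM and did not pass (adjusted p = 0.0983), nor did the peroxidase *Prdx4* (log2 fold change 0.05, adjusted p = 0.788).

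Chaperones, sensors and complexes that work with the family were given as 15 genes, many of them known targets of the same response. Of 14 that could be tested, 13 were higher and 0 lower (0 lower also at an unadjusted p under 0.05 in edgeR and in DESeq2), with a median log2 fold change of 0.80 and no overlap for 10. The largest were *Sdf2l1* (3.76), *Hspa5*, which encodes BiP (2.88), *Hsp90b1*, which encodes GRP94 (2.63), *Hyou1* (2.55) and *Calr* (2.25), and each of these had adjusted p-values of at most 0.000219. The *Pdia3* partners *Calr* and *Canx* differed in size, as *Canx* rose by 0.64 (SE 0.14, adjusted p = 0.00952). The prolyl hydroxylase subunits *P4ha1* and *P4ha2*, partners of *P4hb*, rose by 0.58 and 0.84, and *Mttp*, its partner in lipid transfer, by 0.50. *Lman1*, *Ppib*, *Atf6* and *Ern1* rose by 0.92, 0.76, 0.71 and 0.42. *Tapbp*, the partner of *Pdia3* in antigen loading, had a log2 fold change of -0.10 (adjusted p = 0.472).

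In the thioredoxin system of the cytosol and mitochondria, which uses the same chemistry outside the endoplasmic reticulum, 3 of 10 genes were higher and 0 lower (0 lower also at an unadjusted p under 0.05 in edgeR and in DESeq2), with a median log2 fold change of 0.26. *Txnrd1*, *Txn2* and *Txnl1* rose by 0.61, 0.52 and 0.32, and *Txn1* was at 0.03 (adjusted p = 0.881).

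**Figure D5:**
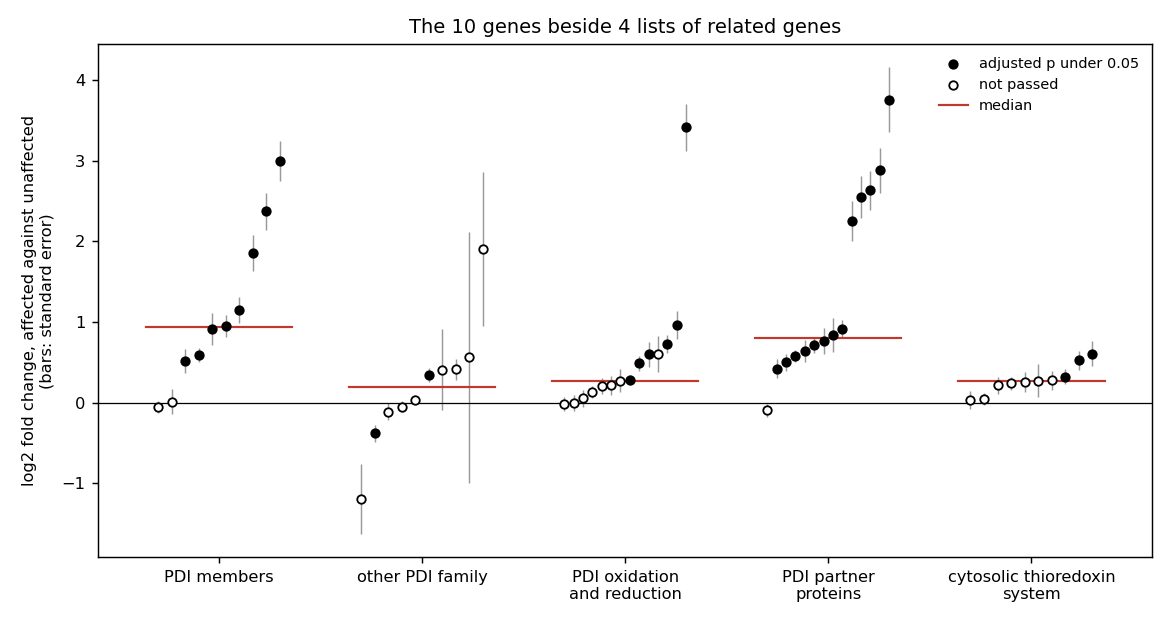
Log2 fold change with its standard error for the 10 genes and 4 related lists, with filled points past an adjusted p of 0.05 and the median of each list as a red line. The medians are 0.93, 0.19, 0.27, 0.80 and 0.26 from left to right, and values above 2 occur in the 10 genes, in the partner proteins and for *Creld2*.

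Markers of other cell types were read in the same fit. Plasma cells are rich in these enzymes, and 1 of 7 tested genes of the plasma and B cell list was higher, with a summed FPKM of 116.9 to 275.1 in affected and 58.3 to 83.5 in unaffected mice. The gene that passed, *Derl3*, itself belongs to protein disposal at the endoplasmic reticulum (mean 128 against 6.30 FPKM), and *Xbp1* was not called (adjusted p = 0.152). The plasma cell receptor *Tnfrsf17*, named after its values were seen, was at most 0.131 CPM in every mouse. Of 8 macrophage genes, 4 were higher, and summed FPKM was 65.5 to 130.7 against 35.4 to 98.1. Of 8 fibroblast genes, 2 were higher, and the sums did not overlap, at 305 to 520 against 219 to 299.7. Of 8 endothelial genes 1 was lower, and of 10 follicular genes 1, *Pax8* (log2 fold change -0.81, adjusted p = 0.0158). Over all genes tested, 7.63% were higher and 6.1% lower, so a single gene in such a list is near the general share. Of the muscle, fat, T cell and parathyroid and C cell lists, 0 genes passed in edgeR, with 0, 2, 0 and 0 at an unadjusted p under 0.05 and 0, 1, 0 and 0 in DESeq2. T cell sums were 170 and 181 FPKM in unaffected replicates 14 and 21 and at most 33.8 elsewhere. The part of these cells in the change of the family was not tested.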

How the data were processed

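Thyroid RNA of 12 mice was measured, 1 library per mouse. RNA was extracted with a MagMax kit, depleted of ribosomal RNA, made into libraries with the KAPA RNA HyperPrep kit and sequenced on an Illumina NextSeq. The authors aligned reads with the OmicSoft Aligner and quantified genes in Array Studio. Coordinates in the deposited table are those of GRCm38, and all 10 members have the same coordinates in GENCODE release M21. The authors deposited estimated counts per gene, without normalization, and FPKM values, which are scaled to transcript length and library size. Use of strand is not given in the sources used here. In the deposited table, 8 of the 10 members are marked as confounded, as are 25349 of all 55536 genes. What this mark means is not given in the sources used here.

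Here, estimated counts were rounded, filtered with edgeR's filterByExpr (minimum count 10), scaled with TMM and put through edgeR's robust quasi-likelihood test (edgeR 4.0.16, R 4.3.3), affected against unaffected, with no covariate, Benjamini-Hochberg adjustment and a threshold of 0.05. Log2 ratios used a prior count of 2, and intervals of pairs invert the permutation test. On counts simulated from the fitted model with known changes, the test gave no change of the wrong sign. Since the simulation used the model of the test itself, it checks the code and not how well the model describes these mice. DESeq2 1.42.0 and limma 3.58.1 (log2 of FPKM plus 1 or plus 0.1, for genes whose mean FPKM reached 0.5, or for all), other scalings and filters, *Xist* as a covariate and leaving out each mouse were alternatives. Members and lists were chosen with earlier results of these data known. All members are named, as are genes of the related lists that passed, others by count or value, and at most 4 markers per cell type. Protein sequences were not used here.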

Additional observations from a re-analysis of the deposited data

How the results depend on the processing

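The count of members that passed was 7 or 8 in all 22 alternatives, the count without overlap was 4 to 7 and the median log2 fold change was 0.80 to 1.03. Among these alternatives, only B6NCrl controls and leaving out unaffected replicate 14 are the same fit under different names. *Pdia3*, *Pdia4*, *Pdia5*, *Pdia6*, *P4hb*, *Erp44* and *Erp29* passed in each alternative, and the cause of the lost calls of *Txndc5* was not tested. *Tmx1*, not called anywhere, changed sign with *Xist* as a covariate (-0.0033), totals without *Tg* counts (-0.11) and only B6NCrl controls (-0.016), and was -0.065 to 0.13 with single mice left out. Genes called over the whole table numbered 2699 and fell to 1339 with limma on log2(FPKM + 1) without a filter, which tests more genes, and were 1774 (without affected replicate 5) to 3390 (without affected replicate 4) with single mice left out. Of the relatives, 2 passed, against 4 with DESeq2, 1 with totals without TMM factors, totals without *Tg* counts or only B6NCrl controls, and 1 (without affected replicate 1 or 5 or unaffected replicate 14, 21, 24, 25 or 26) to 4 (without unaffected replicate 23) with single mice left out. Totals without *Tg* counts left 3 of the oxidation and reduction genes, 8 of the partners and 1 of the cytosolic genes, and the unfiltered limma fit left 1 cytosolic gene. The pairs that passed numbered 39 to 41, and the ratio of summed FPKM was 2.65 to 3.50. The cause of these differences was not tested. No paired analysis was possible because the groups share no replicate number. Each group holds 5 or 7 mice, which limits what small changes could be seen.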

Other observations

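Of the relatives outside the 10 members, *Agr2* and *Agr3*, isomerase-like proteins of mucous epithelia, had the largest fold changes, in opposite directions, and neither passed. *Agr2* had 32.6 ± 12.8 CPM (SD, n = 5) in affected and 8.63 ± 17.3 CPM (SD, n = 7) in unaffected mice, which ran from 0.925 to 47.9 CPM (log2 fold change 1.91, standard error 0.95, adjusted p = 0.213 in edgeR's quasi-likelihood test). *Agr3* had 1.04 ± 0.67 and 2.41 ± 0.79 CPM (log2 fold change -1.20, standard error 0.43, adjusted p = 0.0864). *Pdilt*, a testis-specific relative, had 0 counts in each of the 12 libraries.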
